A study of Mus musculus with 9 samples.

Results

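The Krüppel-like factor (KLF) genes described here are Klf2, Klf3, Klf4, Klf6, Klf7, Klf10, Klf12 and Klf13. They are 8 of the 27179 genes counted in each library and 8 of the 17 Klf genes in the files. The rule names them as members of the family and holds no measured value. Which members to name was decided with earlier results of these data known, so they are not an unbiased draw from the family. KLFs are transcription factors with zinc fingers at the carboxyl end, which bind GC boxes and CACCC boxes, and members differ mainly in the parts that recruit co-activators or co-repressors. KLF2 is known in mouse T cells for keeping resting cells quiescent and for turning on the receptors that let them circulate, and mouse NK cells need it for normal homeostasis. KLF3 and KLF12 are repressors that recruit CtBP proteins. KLF4 restrains division in several cell types and helps monocytes differentiate, KLF10 was found as an early gene of the TGF-beta response, and KLF13 was found as an activator of the chemokine gene Ccl5 in T cells.

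RNA was sequenced from natural killer (NK) cells of C57BL/6 mouse spleen, in a study of ID2, a helix-loop-helix protein, in NK cell fate and the response to interleukin-15 (IL-15), the cytokine on which NK cells depend. Id2-null NK cells and their WT controls were each grown in IL-15 for 7 days, with 3 libraries per genotype. Sorted wild-type Immature, M1 and M2 NK cells, with 1 library each, were used without culture. The sources used here do not give how Id2 was deleted, the sorting markers or the age, sex and number of the mice. They also do not say whether the replicates were separate animals, so a p-value covers the spread among these libraries, which may be technical.

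Total counts were 4128414 to 4831831 per library, so that a count of 0 allows up to 0.621 to 0.727 CPM (counts scaled to library size), taken as 3 counts of the library's total before TMM scaling, a limit that covers counting error only. All CPM below are scaled by TMM factors over the 9 libraries. Id2 stood at 12.3, 23.9 and 8.98 CPM in Id2-null replicates 1 to 3, against 407.9, 400.6 and 374.5 CPM in WT replicates 1 to 3. All 10 NK cell markers had counts in every library, and summed to 4156 to 4921 CPM in Id2-null cultures, 3785 to 4469 CPM in WT cultures and 10920, 13840 and 16290 CPM in Immature, M1 and M2 cells. Xist, expressed in female cells, was at 657.4 to 874.3 CPM in Id2-null cultures and 0.208 to 1.16 CPM in WT cultures, while the Y-linked Ddx3y was at 0.22 to 0.634 CPM in Id2-null cultures and 71.8 to 78.5 CPM in WT cultures. Sex-linked expression therefore moves with genotype, and sex and genotype cannot be told apart. Both genes had counts in the sorted libraries (Xist 90.4 to 127.1 CPM, Ddx3y 37.1 to 46.3 CPM), so that culture against sorted cells also differs in sex make-up. Replicate 3 of each genotype stood apart from replicates 1 and 2, and was the lowest of its genotype in both genotypes for 6 of the 8 KLF genes and for 21.7% of all genes tested.

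The 3 KLF genes with the largest differences below were Klf2, Klf3 and Klf4, so the 250 bases before their transcription starts are shown here as a guide to the sequence context of each gene. They are from RefSeq (GRCm38.p6), which matched 7 of the 8 genes in the promoter table, and capitals mark matches on either strand to CANNTG, the E-box letters bound by the E proteins that ID2 antagonises, or to the MEF2 consensus site. Klf2 is read on the plus strand at chr8:72318812-72319061, Klf3 on the plus strand at chr5:64803271-64803520 and Klf4 on the minus strand at chr4:55532476-55532725.
Klf2: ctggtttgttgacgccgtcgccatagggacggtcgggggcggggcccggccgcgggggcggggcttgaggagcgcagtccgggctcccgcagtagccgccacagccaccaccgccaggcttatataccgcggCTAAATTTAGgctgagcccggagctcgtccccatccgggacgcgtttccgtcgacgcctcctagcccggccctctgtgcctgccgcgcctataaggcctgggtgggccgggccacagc
Klf3: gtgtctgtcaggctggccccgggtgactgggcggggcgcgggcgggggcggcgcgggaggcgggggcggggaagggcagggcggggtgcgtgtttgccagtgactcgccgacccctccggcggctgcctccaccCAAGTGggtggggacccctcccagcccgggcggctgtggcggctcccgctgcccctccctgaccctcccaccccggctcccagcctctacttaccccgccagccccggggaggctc
Klf4: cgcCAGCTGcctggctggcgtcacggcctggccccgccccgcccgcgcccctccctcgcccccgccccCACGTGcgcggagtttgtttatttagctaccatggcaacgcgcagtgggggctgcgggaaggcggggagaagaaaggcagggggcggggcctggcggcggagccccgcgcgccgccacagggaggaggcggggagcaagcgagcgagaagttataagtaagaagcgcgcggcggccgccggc
The Klf2 window held the MEF2 letters as CTAAATTTAG, from -118 to -109 relative to the start, and no E-box letters, and none of the other 6 windows held such a match. MEF2 factors act downstream of the kinase ERK5 to switch on Klf2 in endothelial cells. Of 32851 promoter windows of this length, 2.92% held a match to the MEF2 consensus, a motif chosen with the Klf2 sequence in view. Klf3 held 1 E-box match and Klf4 held 2, against at least 1 in 66.2% of all windows. GGGCGG, the GC box, was found 2 times in the Klf2 window, 6 times in the Klf3 window and 4 times in the Klf4 window, and 32.7% of all windows held at least 1. CACCC, the other box that KLFs bind, occurred 1 time for Klf2, 5 times for Klf3 and 0 times for Klf4, against 52.0% of all windows with at least 1. TGTTTAC, a FOXO site, was in none of the 7 windows and in 3.17% of all windows. These are matches of letters and not mapped binding sites. Klf3, Klf7, Klf10, Klf12 and Klf13 each overlap another gene in the RefSeq table, and whether counting used strand is not stated in the sources used here, so their counts may hold reads of that gene.

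Most KLF genes differed between cultured and freshly sorted wild-type NK cells. Klf2, Klf3, Klf4, Klf6, Klf12 and Klf13 were lower in WT cultures, Klf7 was higher, and Klf10 missed the threshold. The test was edgeR's quasi-likelihood test with Benjamini-Hochberg adjustment over 11117 genes and a threshold of 0.05, with the 3 sorted libraries as 1 group although they are different populations. It called 7 of the 8 KLF genes and 56.8% of all genes tested. Of the 8 KLF genes 6 were lower, against 29.4% of all genes, and 1 was higher, against 27.4%. The median log2 fold was -1.68 over the 8 KLF genes and -0.02 over all genes tested. Of the calls, 48.2% were higher in culture with TMM scaling and 58.9% with library sizes alone, which moved the median of all genes by 0.17 on the log2 scale. The same 7 KLF genes were called with either scaling. In 7 of the 8 KLF genes the 2 groups did not overlap, against 65.7% of all genes tested. Klf4, counted in both tallies of 7, among the 6 lower genes and in the median, passed the filter on low counts only through the sorted cells. It therefore had to differ and is no support in any of these counts.

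Klf2 (Entrez 16598, GRCm38 chr8:72319062-72321654) stood at 8.75, 8.12 and 3.47 CPM in WT replicates 1 to 3, against 323.2, 739.7 and 806.7 CPM in Immature, M1 and M2 cells. All 3 cultures were far below the lowest sorted library, Immature. Klf2 averaged 6.78 ± 2.89 CPM in WT cultures and 623.2 ± 262.0 CPM in sorted cells (SD, n = 3 each), which is 91.7-fold lower in culture (log2 fold -6.52, SE 0.52, edgeR adjusted p = 0.0001411). Only 0.909% of the genes tested had a log2 fold at or below that of Klf2.

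Klf3 (16599, chr5:64803521-64832901) fell 30.8-fold. Its level was 7.08, 5.83 and 4.43 CPM in WT replicates 1 to 3, against 129.9, 176.8 and 231.2 CPM in Immature, M1 and M2 cells. The log2 fold was -4.95 (SE 0.27, edgeR adjusted p = 1.571e-05), and 1.35% of genes tested were at or below it. Klf4 (16600, chr4:55527137-55532475) was at 1.46, 1.46 and 0.193 CPM in WT replicates 1 to 3, with 1 count in replicate 3, against 28.3, 23.6 and 10.3 CPM in Immature, M1 and M2 cells. Klf4 passed the filter on low counts only through the sorted cells, so that it had to differ. It was 19.7-fold lower in culture (log2 fold -4.30, SE 0.59, edgeR adjusted p = 0.0006253).

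**Figure D1:**
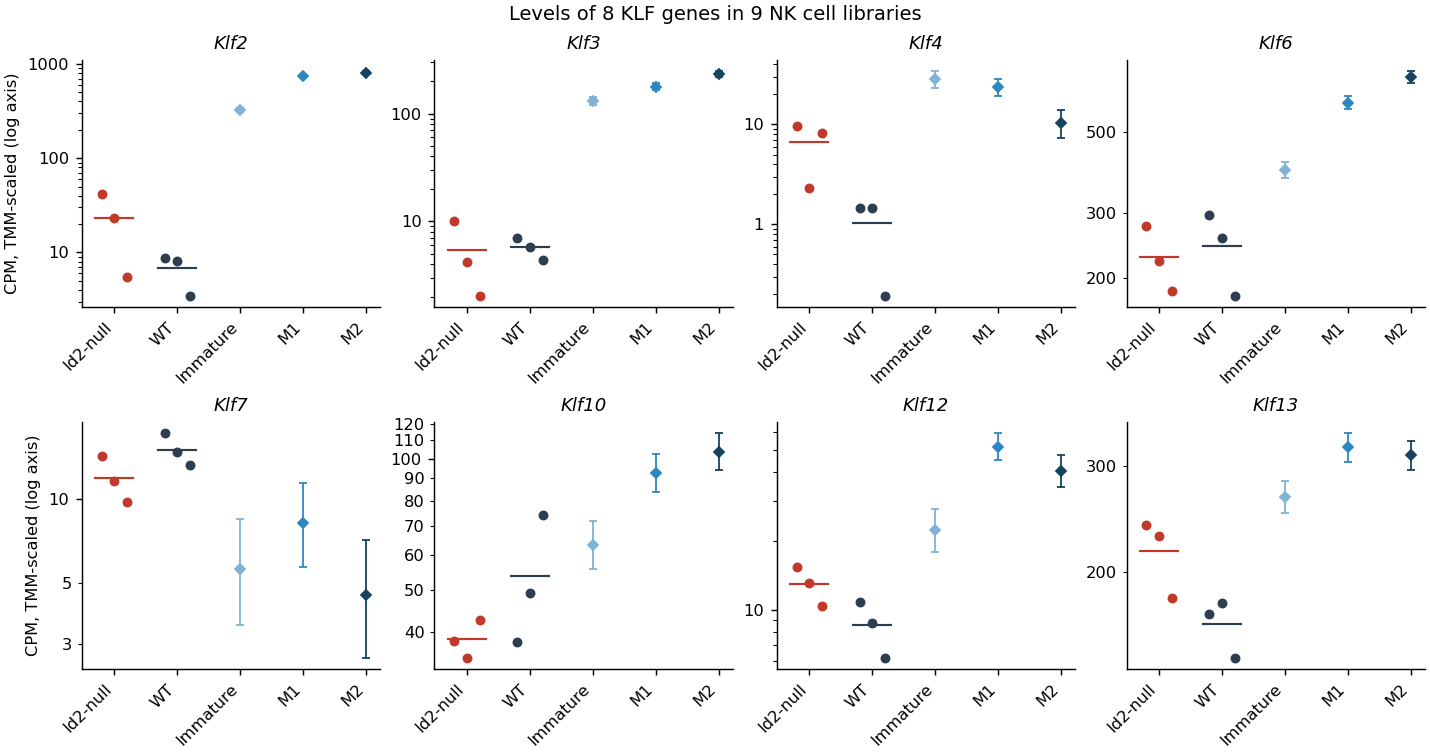
TMM-scaled CPM on a log axis for each of the 8 KLF genes. Points are the 3 Id2-null and 3 WT cultures with a line at the mean, and diamonds are the single Immature, M1 and M2 libraries with exact Poisson 95% intervals, which cover counting error only. Klf2, Klf3 and Klf4 are at 3.47 to 8.75, 4.43 to 7.08 and 0.193 to 1.46 CPM in WT cultures, below every sorted library, and Klf7 is the gene whose cultures sit above the sorted libraries.

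Smaller falls were seen in 3 other members. Klf12 (16597, chr14:99866181-100285891), the repressor, was at 10.8, 8.74 and 6.16 CPM in WT replicates 1 to 3, against 22.4, 51.6 and 40.6 CPM in Immature, M1 and M2 cells, a 4.44-fold lower mean (log2 fold -2.15, SE 0.34, edgeR adjusted p = 0.001119). Klf6 (23849, chr13:5861489-5870393), a broadly expressed member induced by injury and growth signals, was at 297.1, 257.2 and 178.9 CPM in WT replicates 1 to 3, against 393.5, 601.2 and 705.7 CPM in Immature, M1 and M2 cells. It was 2.31-fold lower in culture (log2 fold -1.21, SE 0.26, edgeR adjusted p = 0.004579) and had the highest level per length of the 8 genes there. Klf13 (50794, chr7:63886351-63938915) was at 170.2, 177.5 and 144.0 CPM in WT replicates 1 to 3, against 266.7, 322.8 and 313.2 CPM in Immature, M1 and M2 cells, a 1.83-fold lower mean (log2 fold -0.87, SE 0.14, edgeR adjusted p = 0.0008527).

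Klf7 rose and Klf10 was not called. Klf7 (93691, chr1:64029448-64122345), known for axon growth in neurons, was at 17.3, 14.8 and 13.3 CPM in WT replicates 1 to 3, against 5.60, 8.20 and 4.51 CPM in Immature, M1 and M2 cells. It was 2.48-fold higher in culture (log2 fold 1.31, SE 0.27, edgeR adjusted p = 0.00357), and every culture was above every sorted library. Klf10 (21847, chr15:38291464-38300711) was at 37.9, 49.1 and 74.3 CPM in WT replicates 1 to 3, against 63.4, 92.9 and 103.7 CPM in Immature, M1 and M2 cells. WT replicate 3 was above the Immature library, so that the groups overlapped, and the log2 fold was -0.68 (SE 0.28, edgeR adjusted p = 0.06587). Klf10 passed without WT replicate 3 (adjusted p = 0.01049) or without the Immature library (adjusted p = 0.02459), with DESeq2 (adjusted p = 0.04251), which called 54.8% of all genes, with limma voom (0.04881) and with all 9 libraries in the fit (0.04124). Over all alternatives its adjusted p was 0.01049 to 0.2028.

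**Figure D2:**
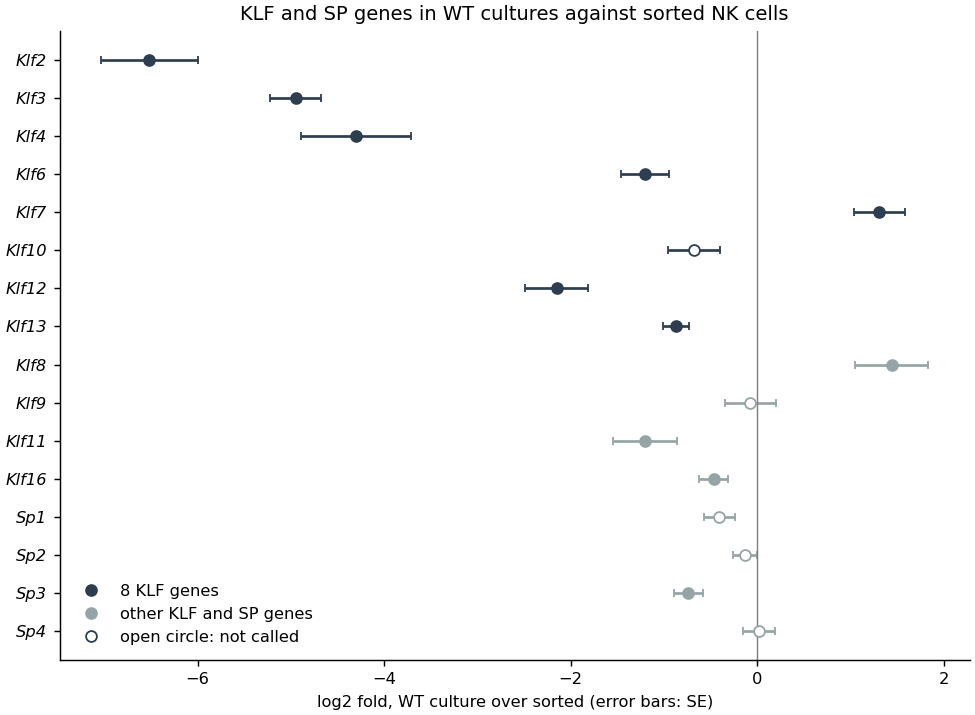
log2 fold of WT culture over sorted cells (x axis, error bars SE) for the 8 KLF genes and the other KLF and SP genes tested, from edgeR. Filled points passed an adjusted p of 0.05 and open points did not. Klf2 is farthest to the left at -6.52, Klf7 and Klf8 are to the right at 1.31 and 1.44, and Klf9 and Sp4 lie closest to 0, at -0.07 and 0.02.

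The immediate early and handling genes, known to respond quickly to tissue dissociation and sorting, were mostly lower in culture too. Of 16 tested, 13 were lower and 1 was higher in WT culture, with a median log2 fold of -2.80. Among all genes tested 29.4% were lower and 27.4% were higher. Fos, part of the AP-1 factor, averaged 5.77 CPM in WT cultures and 1698 CPM in sorted cells (edgeR adjusted p = 1.996e-05), Fosb 4.75 and 519.6 CPM (1.325e-05), Dusp1, a MAP kinase phosphatase, 9.86 and 401.3 CPM (6.247e-06), and the heat shock gene Hspa1b 0.342 and 38.5 CPM (1.325e-05). Hspa1b, with 3, 1 and 1 counts in WT cultures, passed the filter on low counts only through the sorted libraries and so had to differ. Hspa1a and Atf3, at means of 0.208 and 2.01 CPM in WT cultures, also entered the test through the sorted libraries. The 13 lower genes and the median hold all of these. The list's sum was 930.8 to 1641 CPM in WT cultures, against 5802, 9006 and 7081 CPM in Immature, M1 and M2 cells. Their part in the KLF differences was not tested, and culture, sorting and handling cannot be told apart in this design.

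Markers of several other cell types also differed between WT cultures and sorted cells, in a direction that varied between lists. Of 12 monocyte and neutrophil markers, 2 to 3 had a count in a WT culture, summing to 39.7 to 128.5 CPM, nearly all from Itgam, which NK cells also express. In the sorted libraries 11 had counts in Immature and 12 in M1 and M2 cells, summing to 251.6, 1290 and 2695 CPM. Itgam averaged 943.5 CPM (SD 838.1) over the sorted libraries and so was on average the larger part of these sums too. Its sorted values overlapped those of WT cultures, so this need not hold in each sorted library. Lyz2, S100a8 and S100a9 were at 0 in all 6 cultures, while Lyz2 was at 56.8, 60.1 and 231.2 CPM in Immature, M1 and M2 cells. Monocytes are also known to express Klf4. The 8 B cell markers summed to 1.04 to 1.46 CPM in WT cultures and 26.7 to 101.5 CPM in sorted cells, the 8 T cell markers to 57.2 to 219.9 CPM in WT cultures and 93.8 to 565.2 CPM in sorted cells, and the 9 erythroid and platelet markers to 0.39 to 1.67 CPM in WT cultures and 19.9 to 56.1 CPM in sorted cells. Dendritic cell markers (7) summed to 52.9 to 58.3 CPM in WT cultures and 36.7 to 46.1 CPM in sorted cells. Stromal and endothelial markers (8) summed to 137.3 to 166.0 CPM in WT cultures and 155.9 to 171.1 CPM in sorted cells. Most of the dendritic sum was Bst2, which averaged 48.4 CPM in WT cultures and 35.1 CPM in sorted cells. Most of the stromal and endothelial sum was Pecam1, at 150.5 and 159.0 CPM. The part of these cells in the KLF levels was not tested. In bulk RNA, fewer cells of a type and less RNA per cell cannot be told apart.

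Of the other KLF and SP genes, relatives that bind the same boxes, 18 of the 19 listed were in the files and 8 were tested. In WT cultures against sorted cells 1 was higher and 3 were lower, with a median log2 fold of -0.27. The 4 calls among 8 genes compare with 56.8% of all genes tested. Klf8, a repressor on the X chromosome, averaged 7.93 CPM in WT cultures and 2.91 CPM in sorted cells (log2 fold 1.44, edgeR adjusted p = 0.01229). Sp3, a widely expressed relative, averaged 137.0 CPM in WT cultures and 230.2 CPM in sorted cells (log2 fold -0.74, adjusted p = 0.003747). Klf11, the nearest relative of Klf10, averaged 7.22 CPM in WT cultures and 16.8 CPM in sorted cells (log2 fold -1.20, adjusted p = 0.0153), and Klf16 averaged 33.5 CPM in WT cultures and 46.6 CPM in sorted cells (log2 fold -0.47, adjusted p = 0.0277). Klf8 lost its call without WT replicate 1 (adjusted p = 0.05099) and Klf11 without WT replicate 1 or 2 (0.066 and 0.06468). Klf16 lost its call with library sizes alone (0.1286) and without WT replicate 1 or 2, M1 or M2 (0.06017, 0.1184, 0.07858 and 0.06802).

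Levels of different genes can be compared only per length, so the make-up of the family was taken as RPKM, the TMM-scaled CPM divided by the deposited gene length in kilobases. The 8 genes summed to 101.9 to 159.6 RPKM in Id2-null cultures, 104.2 to 132.6 RPKM in WT cultures and 407.3 to 808.3 RPKM in sorted cells. They made up 85.8% to 89.8% of the summed RPKM of all 17 Klf genes in Id2-null cultures, 82.8% to 88.0% in WT cultures and 94.9% to 96.6% in sorted cells. Klf2 alone took 2.55% to 12.8% of that sum in Id2-null cultures, 1.52% to 3.15% in WT cultures and 41.5% to 53.9% in sorted cells. Klf6 took 36.3% to 37.1% in Id2-null cultures, 33.7% to 46.0% in WT cultures and 18.9% to 21.7% in sorted cells. For Klf13 the shares were 21.1% to 24.6% in Id2-null cultures, 17.4% to 19.6% in WT cultures and 5.84% to 9.72% in sorted cells. Klf2 was thus the leading Klf transcript per length in all 3 sorted libraries, and Klf6 in all 6 cultures.

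In order of mean level per length, Id2-null cultures held Klf6 (54.2 ± 11.1 RPKM, SD, n = 3), Klf13 (33.9 ± 4.88 RPKM), Klf2 (12.9 ± 9.88 RPKM), Klf10 (12.7 ± 1.28 RPKM), Klf7 (8.86 RPKM), Klf3 (2.36 RPKM), Klf12 (2.26 RPKM) and Klf4 (2.21 RPKM). The ranges of Klf2 and Klf10, of Klf3 and Klf12, and of Klf12 and Klf4 overlapped, and those of the other neighbours did not. WT cultures held Klf6 (57.9 ± 14.3 RPKM), Klf13 (25.6 ± 2.75 RPKM), Klf10 (17.7 ± 6.12 RPKM), Klf7 (11.3 ± 1.51 RPKM), Klf2 (3.73 ± 1.59 RPKM), Klf3 (2.50 ± 0.574 RPKM), Klf12 (1.49 RPKM) and Klf4 (0.34 RPKM). Here Klf13 overlapped Klf10, Klf10 overlapped Klf7, and Klf2 overlapped Klf3. Over the 3 sorted libraries the order was Klf2 (mean 343.2 RPKM, range 178.0 to 444.2), Klf6 (134.4 RPKM), Klf3 (77.5 RPKM), Klf13 (47.0 RPKM), Klf10 (28.5 RPKM), Klf4 (6.81 RPKM), Klf12 (6.65 RPKM) and Klf7 (4.54 RPKM). The ranges of Klf6 and Klf3, Klf4 and Klf12, and Klf12 and Klf7 overlapped there.

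**Figure D3:**
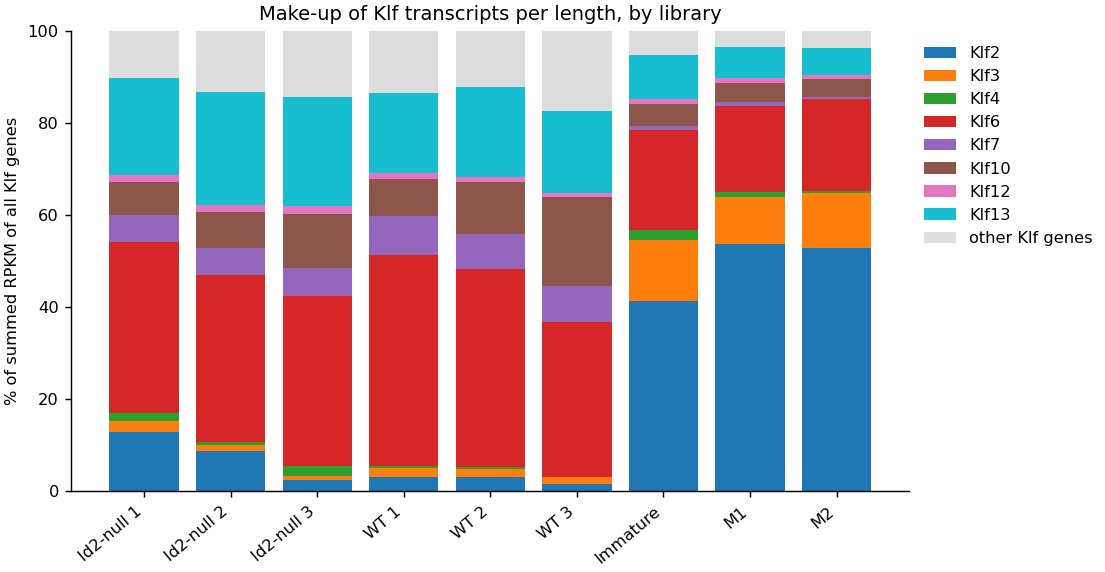
Share of the summed RPKM of all 17 Klf genes taken by each of the 8 KLF genes in every library (y axis, %), with the remaining Klf genes in light grey. Klf2 takes 41.5% to 53.9% of the bar in the sorted libraries, and at most 12.8% in Id2-null cultures and 3.15% in WT cultures, where Klf6 is the largest share.

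Among the sorted populations, which have 1 library each and so no test, Klf2 and Klf12 had the largest steps between Immature and M1 cells. Klf2 was at 323.2 CPM (exact Poisson 95% interval 305.7 to 341.5) in Immature, 739.7 CPM (713.7 to 766.3) in M1 and 806.7 CPM (779.1 to 835.1) in M2 cells, which is 2.29-fold from Immature to M1 and 1.09-fold from M1 to M2. Klf12 was at 22.4 CPM (18.0 to 27.6) in Immature, 51.6 CPM (44.9 to 59.0) in M1 and 40.6 CPM (34.6 to 47.3) in M2 cells, a 2.30-fold step to M1. Both steps were at least 2-fold, a size seen in 4.23% of 12326 genes between these libraries, and none of the 8 was at least 2-fold lower in M1, against 7.49% of genes.

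Klf4 was the only KLF gene of the 8 that was at least 2-fold lower in M2 cells. It was at 28.3 CPM (23.3 to 34.1) in Immature, 23.6 CPM (19.2 to 28.8) in M1 and 10.3 CPM (7.37 to 13.9) in M2 cells. M2 was 2.30-fold below M1, a step that 3.85% of genes reached, and 2.75-fold below Immature, against 8.54% of genes. Of the 8 genes, Klf2 alone was at least 2-fold higher in M2 than in Immature, at 2.50-fold, against 8.67% of genes. None of the 8 was at least 2-fold higher in M2 than in M1, against 7.70% of genes.

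The remaining genes differed by less than 2-fold between these libraries. Klf3 was at 129.9 CPM (118.9 to 141.7) in Immature, 176.8 CPM (164.3 to 190.1) in M1 and 231.2 CPM (216.6 to 246.6) in M2 cells, and the 3 counting intervals were apart. Klf6 was likewise apart at 393.5 CPM (374.1 to 413.6) in Immature, 601.2 CPM (577.8 to 625.3) in M1 and 705.7 CPM (679.9 to 732.3) in M2 cells. Klf10 was at 63.4 CPM (55.8 to 71.8) in Immature, 92.9 CPM (83.8 to 102.6) in M1 and 103.7 CPM (94.0 to 114.2) in M2 cells, and the intervals of M1 and M2 overlapped. Klf13 was at 266.7 CPM (250.8 to 283.3) in Immature, 322.8 CPM (305.7 to 340.6) in M1 and 313.2 CPM (296.0 to 331.0) in M2 cells, again with M1 and M2 overlapping. Klf7, with 22, 34 and 18 counts in Immature, M1 and M2 cells, had overlapping intervals, which is not a test of a difference. M1 was 1.82-fold above M2, at low counts.

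Loss of Id2 was compared in the cultures. In that comparison 0 of the 8 KLF genes passed the threshold, and 377 of 11022 genes tested, 3.42%, were called. An unadjusted edgeR p under 0.05 was reached by 2 of the 8 (Klf4 and Klf13) and by 1613 of the 11022 genes. With the replicate number as a block Klf2 and Klf13 passed, both higher, and 7.58% of all genes were called (4.10% higher). DESeq2 called Klf2 and Klf4, both higher, and 5.26% of all genes (2.87% higher). The median log2 fold of Id2-null over WT was 0.16 over the 8 genes and 0.01 over all genes tested. The genotypes did not overlap for 2 of the 8 genes, Klf4 and Klf13, and for 20.4% of all genes. Klf4 passed the filter on low counts only through the Id2-null cultures, so that it had to differ. Its place among the DESeq2 calls, the unadjusted p-values and the genes without overlap is therefore no support for a difference. WT libraries enter both this comparison and the one with sorted cells.

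Klf2 was at 41.4, 23.5 and 5.51 CPM in Id2-null replicates 1 to 3, against 8.75, 8.12 and 3.47 CPM in WT replicates 1 to 3. Within each replicate number the Id2-null library was the higher, by 4.73-, 2.89- and 1.59-fold, but Id2-null replicate 3 lay below WT replicates 1 and 2. The means were 23.4 ± 17.9 CPM in Id2-null cultures and 6.78 ± 2.89 CPM in WT cultures (SD, n = 3 each), and the log2 fold was 1.79 (SE 0.76, edgeR adjusted p = 0.3604). Blocking on replicate number gave a log2 fold of 1.62 (SE 0.29, edgeR adjusted p = 0.01531). Without Id2-null replicate 3 the adjusted p was 0.01385, and without replicate 3 of both genotypes it was 1.084e-05. The Id2-null cultures remained below the Immature library, at 323.2 CPM.

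Klf4 was at 9.69, 2.33 and 8.16 CPM in Id2-null replicates 1 to 3, against 1.46, 1.46 and 0.193 CPM in WT replicates 1 to 3. These were 44, 11 and 40 counts in Id2-null cultures and 7, 7 and 1 counts in WT cultures. Klf4 passed the filter on low counts only through the Id2-null cultures, so that it had to differ. Every Id2-null library was above every WT library, with a log2 fold of 2.69 (SE 0.71, edgeR adjusted p = 0.09821, and 0.0777 with the replicate block). DESeq2 gave an adjusted p of 0.007766. Monocyte and neutrophil markers summed to 57.7, 32.8 and 2.65 CPM in Id2-null cultures, against 128.5, 88.8 and 39.7 CPM in WT cultures. These sums were nearly all Itgam, which NK cells also express, and Lyz2, S100a8 and S100a9 were at 0 in all 6 cultures.

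Klf13 was at 239.9, 229.4 and 181.3 CPM in Id2-null replicates 1 to 3, against 170.2, 177.5 and 144.0 CPM in WT replicates 1 to 3. The Id2-null library was the higher in each replicate number, by 1.41-, 1.29- and 1.26-fold, and the lowest Id2-null library was just above the highest WT library. The log2 fold was 0.41 (SE 0.14, edgeR adjusted p = 0.2179), and with the replicate block it was 0.41 (SE 0.10, adjusted p = 0.04303). Without Id2-null replicate 3 the adjusted p was 0.03513, and without replicate 3 of both genotypes it was 0.04117.

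**Figure D4:**
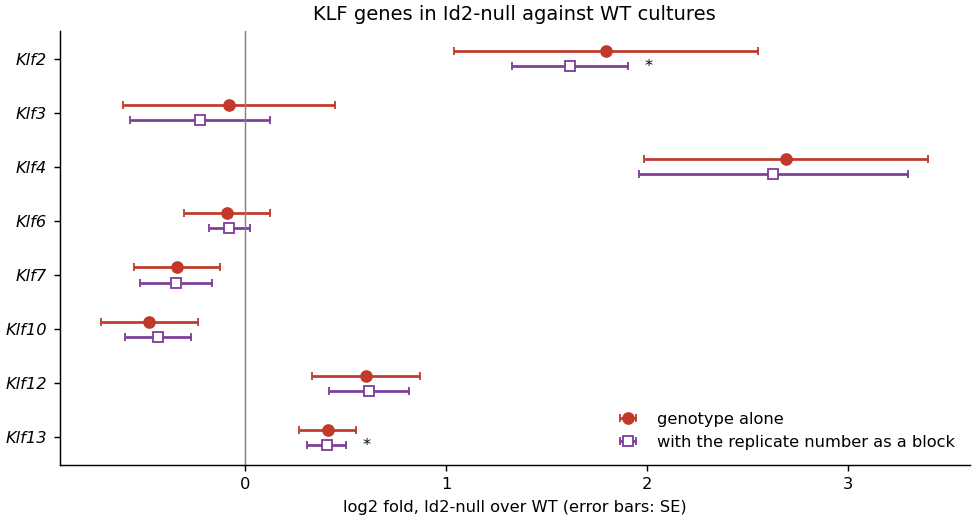
log2 fold of Id2-null over WT (x axis, error bars SE) for each of the 8 KLF genes, from edgeR with genotype alone (filled circles) and with the replicate number as a block (open squares). An asterisk marks an adjusted p under 0.05, which Klf2 and Klf13 reach with the block alone, at log2 folds of 1.62 and 0.41. Klf4 has the largest fold, 2.69, and a wide error, and Klf3 and Klf6 lie near 0.

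The other 5 genes were not called in any fit. Klf12 was at 15.4, 13.1 and 10.4 CPM in Id2-null replicates 1 to 3, against 10.8, 8.74 and 6.16 CPM in WT replicates 1 to 3 (log2 fold 0.60, SE 0.27, edgeR adjusted p = 0.3544). The Id2-null library was the higher in every replicate number, but the ranges overlapped. Klf10 was at 38.1, 34.9 and 42.6 CPM in Id2-null cultures, against 37.9, 49.1 and 74.3 CPM in WT cultures (log2 fold -0.48, SE 0.24, adjusted p = 0.4292), and was the one member that was highest in replicate 3 of both genotypes. Klf7 was at 14.3, 11.6 and 9.79 CPM in Id2-null cultures, against 17.3, 14.8 and 13.3 CPM in WT cultures (log2 fold -0.34, SE 0.22, adjusted p = 0.5561). The Id2-null library was the lower in each replicate number for Klf7.

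Klf6 was at 277.8, 223.3 and 184.8 CPM in Id2-null cultures, against 297.1, 257.2 and 178.9 CPM in WT cultures, a spread within each genotype that was larger than the difference between them (log2 fold -0.09, SE 0.21, edgeR adjusted p = 0.9053). Klf3 was at 10.1, 4.23 and 2.04 CPM in Id2-null cultures, against 7.08, 5.83 and 4.43 CPM in WT cultures (log2 fold -0.08, SE 0.53, adjusted p = 0.9732). Its Id2-null libraries lay on both sides of the WT range. Among the other KLF and SP genes 0 of 8 tested passed, and the median log2 fold was -0.06. An unadjusted p under 0.05 was seen in 1 of the 8, against 1613 of all 11022 genes tested. With the replicate block, which called 7.58% of all genes tested, Sp4 passed (log2 fold -0.61, edgeR adjusted p = 0.01013). The SP factors Sp1 and Sp3, the most abundant of them, averaged 199.1 and 134.6 CPM in Id2-null cultures and 202.1 and 137.0 CPM in WT cultures (edgeR adjusted p = 0.9818 and 0.9681).

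The KLF target list holds genes that KLF factors are known to act on, mostly from mouse T cells and endothelium. In Id2-null against WT cultures 10 of the 13 listed genes were tested, with a median log2 fold of 0.26. Of these 3 were higher and 1 was lower, against 3.42% of all genes called. Cxcr3, a chemokine receptor that rises in mouse T cells lacking KLF2, was at 256.0, 327.3 and 247.8 CPM in Id2-null cultures, against 74.0, 103.0 and 73.0 CPM in WT cultures (log2 fold 1.74, edgeR adjusted p = 0.001626). Ccr7, a homing receptor for lymph nodes, averaged 6.72 CPM in Id2-null cultures and 1.21 CPM in WT cultures (log2 fold 2.44, adjusted p = 0.0444). Ccr7 had 8, 3 and 7 counts in WT replicates 1 to 3 and passed the filter on low counts only through the Id2-null cultures, so that it had to differ. Its call was lost with limma voom (0.09929), without robust estimation (0.0541), and without any single replicate other than Id2-null replicate 3 (0.09258 to 0.1665). Ccl5, the chemokine gene that KLF13 was found on, was the called gene that fell, at 76.8, 84.4 and 63.6 CPM in Id2-null cultures, against 210.6, 189.6 and 165.2 CPM in WT cultures (log2 fold -1.32, adjusted p = 0.00222).

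Between WT cultures and sorted cells 11 target genes were tested, 2 were higher and 7 were lower, with a median log2 fold of -1.80. Across all genes tested 27.4% were higher and 29.4% lower. Among the lower target genes S1pr5 and Ccr7 averaged 1.36 and 1.21 CPM in WT cultures. Like S1pr1 below, they entered the test through the sorted libraries and so had to differ. The count of lower genes and the median hold these genes and are no support for a shared fall. The higher ones were Cdkn1a and Myc. Cdkn1a averaged 166.3 CPM in WT cultures and 8.83 CPM in sorted cells (log2 fold 4.24, edgeR adjusted p = 0.0001918). Myc averaged 153.4 CPM in WT cultures and 65.5 CPM in sorted cells (log2 fold 1.23, edgeR adjusted p = 0.02463, up to 0.07229 over the alternatives). S1pr1, the sphingosine phosphate receptor for leaving lymphoid tissue and a direct KLF2 target in mouse T cells, was at 2.71, 5.20 and 1.16 CPM in WT replicates 1 to 3, against 177.3, 188.4 and 124.5 CPM in Immature, M1 and M2 cells (log2 fold -5.75, edgeR adjusted p = 6.026e-05). With 13, 25 and 6 counts in WT replicates 1 to 3, S1pr1 entered the test through the sorted libraries, since only 2 of the 3 cultures reached the filter. In Id2-null cultures it was at 5.28, 5.29 and 1.63 CPM. Ccl5 averaged 188.5 CPM in WT cultures and 4915 CPM in sorted cells (log2 fold -4.70, adjusted p = 4.528e-05). Itgb7, an integrin chain for homing to the gut, averaged 295.1 CPM in WT cultures and 1035 CPM in sorted cells (log2 fold -1.80, adjusted p = 0.0001446).

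**Figure D5:**
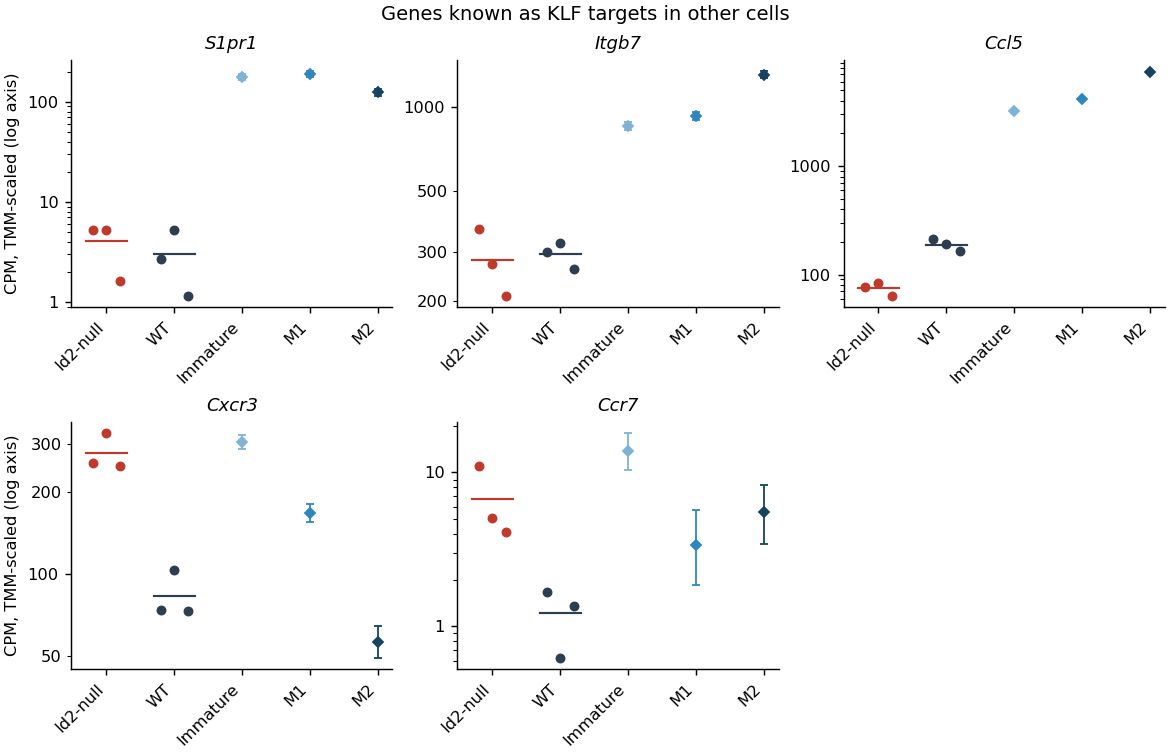
TMM-scaled CPM on a log axis for 5 genes known as KLF targets, with points for the 3 Id2-null and 3 WT cultures, a line at the mean, and diamonds with exact Poisson 95% intervals for the single sorted libraries. Cxcr3 is at 247.8 to 327.3 CPM in Id2-null cultures and 73.0 to 103.0 CPM in WT cultures, S1pr1 is under 6 CPM in all cultures, and Ccl5 is lowest in Id2-null cultures.

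Upstream of KLF2 and KLF4 the list included the ERK5 kinase cascade, MEF2 and FOXO factors, AKT1 and ubiquitin ligases that turn KLF proteins over, and all 14 were tested. In Id2-null against WT cultures 1 was higher and 0 were lower, against 3.42% of all genes called, with a median log2 fold of 0.07. Foxo1, which switches on Klf2 in mouse T cells, was at 306.0, 237.0 and 267.2 CPM in Id2-null replicates 1 to 3, against 139.2, 127.1 and 122.5 CPM in WT replicates 1 to 3 (log2 fold 1.06, edgeR adjusted p = 0.003352). The replicate block, which called 7.58% of all genes tested, added Mef2c (log2 fold 0.75, edgeR adjusted p = 0.007147). In WT cultures against sorted cells 2 were higher and 6 were lower, with a median log2 fold of -0.25. These 8 calls among 14 genes are a share close to the 56.8% of all genes tested that were called. The ERK5 pathway kinases Map3k2 and Map3k3 averaged 68.7 and 68.3 CPM in WT cultures and 186.2 and 128.9 CPM in sorted cells (adjusted p = 0.0001884 and 0.0003567). Fbxw7, a ubiquitin ligase subunit that marks KLF2 for degradation, averaged 57.2 CPM in WT cultures and 25.8 CPM in sorted cells (log2 fold 1.15, adjusted p = 0.0003567). Wwp1, a ligase for KLF2, averaged 39.7 CPM in WT cultures and 67.9 CPM in sorted cells (log2 fold -0.77, adjusted p = 0.008362), a call lost without WT replicate 2 (0.05275).

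Of 12 co-repressors and co-activators of the KLF proteins tested, 0 were called in Id2-null against WT cultures by edgeR, 0 had an unadjusted p under 0.05, and the median log2 fold was -0.05. Among all genes 3.42% were called, and 1613 of 11022 had an unadjusted p under 0.05. Ctbp1, the co-repressor of KLF3 and KLF12, averaged 258.9 CPM in Id2-null cultures and 241.8 CPM in WT cultures (adjusted p = 0.7735), and the acetyltransferase gene Ep300 averaged 196.5 CPM in Id2-null cultures and 203.0 CPM in WT cultures (adjusted p = 0.917). In WT cultures against sorted cells 3 of the 12 were higher and 0 were lower, with a median log2 fold of 0.19. Of all genes tested 27.4% were higher and 29.4% were lower. Fhl3, a LIM protein that binds KLF3, averaged 65.6 CPM in WT cultures and 6.31 CPM in sorted cells (log2 fold 3.38, edgeR adjusted p = 1.521e-05), the opposite direction to Klf3. Ctbp2 averaged 35.2 CPM in WT cultures and 13.9 CPM in sorted cells (log2 fold 1.34, adjusted p = 0.002251). Crebbp averaged 110.1 CPM in WT cultures and 74.1 CPM in sorted cells (log2 fold 0.58, adjusted p = 0.03551), with overlapping groups and no call without WT replicate 1 or 2, Immature or M2 (0.08214 to 0.1031).

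Genes of the TGF-beta pathway, which induces Klf10, were listed as 8 and all were tested. In Id2-null against WT cultures 1 was higher, against 3.42% of all genes called, with a median log2 fold of -0.09. Tgfbr1, the type I receptor, averaged 224.6 CPM in Id2-null cultures and 102.8 CPM in WT cultures (log2 fold 1.13, edgeR adjusted p = 0.01429), and lost its call when Id2-null replicate 1 (0.06694), or WT replicate 1 or 2 (0.07832 and 0.0655), was left out. The replicate block, which called 7.58% of all genes tested, added Tgfb1 and Smad3, both lower (log2 folds -0.47 and -0.46, edgeR adjusted p = 0.03064 and 0.02564). In WT cultures against sorted cells 1 was higher and 3 were lower, with a median log2 fold of -0.22. The 4 calls among 8 genes compare with 56.8% of all genes tested. Smad3, a signal transducer, averaged 121.9 CPM in WT cultures and 519.9 CPM in sorted cells (log2 fold -2.08, adjusted p = 6.621e-05). The ligand gene Tgfb1 averaged 402.0 CPM in WT cultures and 192.1 CPM in sorted cells (log2 fold 1.07, adjusted p = 0.0001846). The inhibitor gene Skil averaged 64.8 CPM in WT cultures and 131.4 CPM in sorted cells, and the shared transducer Smad4 averaged 74.3 CPM in WT cultures and 125.6 CPM in sorted cells (adjusted p = 0.0003429 and 0.001938).

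Of the immediate early and handling genes 13 were tested in Id2-null against WT cultures, 0 were called by edgeR and 0 had an unadjusted p under 0.05, with a median log2 fold of -0.12. Of all genes tested 3.42% were called, and 1613 of 11022 had an unadjusted p under 0.05. The immediate early and handling genes summed to 1895, 1490 and 1075 CPM in Id2-null replicates 1 to 3, against 1620, 1641 and 930.8 CPM in WT replicates 1 to 3. The most abundant, the AP-1 gene Jund and the anti-proliferative gene Btg2, averaged 528.3 and 297.3 CPM in Id2-null cultures and 391.8 and 236.5 CPM in WT cultures (edgeR adjusted p = 0.4245 and 0.4023). With the replicate block, which called 7.58% of all genes tested, Jund and Ier3 passed (log2 folds 0.45 and -0.92, edgeR adjusted p = 0.03884 and 0.01437). The T cell markers summed to 183.2 to 331.1 CPM in Id2-null cultures and 57.2 to 219.9 CPM in WT cultures, of which 0 of 4 tested genes were called, and Cd3d and Cd3e passed with the block (log2 folds 2.19 and -1.19, adjusted p = 0.001423 and 0.0159). The B cell markers summed to 1.22 to 2.11 CPM in Id2-null cultures and 1.04 to 1.46 CPM in WT cultures. The stromal and endothelial markers summed to 38.1 to 60.1 CPM in Id2-null cultures and 137.3 to 166.0 CPM in WT cultures. In Id2-null cultures Pecam1, an adhesion molecule gene, was the only one of those 8 markers with a count, and it averaged 48.6 CPM in Id2-null cultures and 150.5 CPM in WT cultures (log2 fold -1.63, edgeR adjusted p = 0.002022). The dendritic cell markers summed to 49.8 to 61.6 CPM in Id2-null cultures and 52.9 to 58.3 CPM in WT cultures. Xcr1, of this list, had 4, 0 and 0 counts in Id2-null replicates 1 to 3, against 28, 14 and 14 counts in WT replicates 1 to 3, and entered the test through the WT cultures alone (edgeR adjusted p = 0.06985, and 0.01603 with the replicate block). Their part in the KLF levels was not tested.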

How the data were processed

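Total RNA of splenic NK cells was sequenced in 9 libraries. The deposited values are raw counts per Entrez gene with a gene length, per the file headers. Subread, featureCounts and limma are named with GRCm38 (mm10) per the submitters' processing notes. The sources used here give no versions, annotation or strand setting. The labels number the cultured samples 1 to 6 and the sorted ones 7 to 9 without saying which is which, and listed order was taken.

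Symbols came from RefSeq GRCm38.p6 (25275 genes) or GENCODE (18), and 1886 genes had none. Counts were fitted in R 4.3.3 with edgeR 4.0.16 (filterByExpr, minimum count 10, TMM, robust quasi-likelihood) and adjusted by Benjamini-Hochberg over all genes tested, and checked on simulated data. Common biological variation was 0.209 for genotype and 0.197 for culture against sorted cells. The simulated counts used that single value for all genes and did not set replicate 3 apart, unlike these data. There, 63% of changes of log2 size 1 and 100% of those of log2 size 2 were called in either comparison. DESeq2 1.42.0, limma 3.58.1 voom, other scalings, no filter, all libraries in 1 fit and each library left out were alternatives. Same-numbered Id2-null and WT libraries deviated together (correlations 0.352, 0.241 and 0.417), and numbers were taken to pair the samples. Replicates 1 and 2 also correlated across numbers (0.189 and 0.136), so the numbers mainly separate replicate 3, whose correlations with the others were -0.397 to -0.261.

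The members, gene lists and tests were chosen with earlier results of these data known. Named genes were all 8 members and, per list, up to 4 called genes by adjusted p, or the 2 of highest mean CPM where none was called. Genes and motifs beyond this rule were chosen after their values or sequences were seen. Not every gene named by this rule is reported here.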

Additional observations from a re-analysis of the deposited data

How the results depend on the processing

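For Id2-null against WT, 377 genes and 0 KLF genes were called. DESeq2 called 580 genes and 2 KLF genes, the replicate block 835 and 2, and leaving out replicate 3 of both genotypes 1065 and 2. Leaving out single libraries gave 121 (WT replicate 1) to 662 (Id2-null replicate 3) genes and 0 to 2 KLF genes. The replicate block changed no call of the other 6 KLF genes. Among log2 folds, that of Klf3 turned to 0.072 and 0.312 without Id2-null replicates 2 and 3, to 0.083 without WT replicate 1, and to 0.148 without replicate 3 of both genotypes, and its range over single libraries left out was -0.869 to 0.312. Klf6 ranged over -0.273 to 0.066 (0.038 when Id2-null replicate 3 was left out, 0.066 for WT replicate 1), Sp1 over -0.092 to 0.072 (0.05 when Id2-null replicate 2 was left out, 0.072 for WT replicate 1) and Sp3 over -0.094 to 0.059 (highest without WT replicate 1). None of these genes was called in the main comparison, and the cause was not tested. For WT cultures against sorted cells the same 7 KLF genes were called under every alternative run, and Klf10 also under some. No paired analysis was possible because the sorted libraries share no replicate numbers with the cultures. Depth limits Klf4 in culture and Klf7 in sorted cells most, and the sorted populations have no replicate. The fit without robust estimation was chosen after seeing the data.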

Other observations

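Over the 9 libraries the gene profiles closest to that of Klf2 were those of Klf3, Arl4d and Rap1gap2, with root mean square differences of 0.863, 0.959 and 0.998 on the log2 CPM scale among 7897 genes searched, each profile centred on its own mean. Klf2 was chosen for this after its values were seen. The 9 points share 2 sources, culture and fresh sorting, which set most of the spread. The closest to Klf3 were Selenop, Ccl5 and Abcg1, at 0.531, 0.638 and 0.65.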
